A study of Homo sapiens with 16 samples.

Results

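The 10 genes described here belong to the cardiac Z-disc and its stretch-sensing partners (CSRP3, NRAP, DES, TCAP, LDB3, ACTN2, XIRP1, MYOZ2, ANKRD1 and FHL2) and were followed across 16 libraries of cardiomyocytes derived from human pluripotent stem cells (hPSC-CMs). They were taken by name, with earlier results of these data known, and make up 10 of the 43388 genes in the table. All 10 were among the 16122 genes tested, those averaging 1 TPM (transcripts per 1e+06) or more. The cells came from WTC11, an established human induced pluripotent stem cell line of wild-type genotype, and from a single differentiation. Day 16 RPMI/B27 is the baseline, taken before the media were changed. The other groups were taken on Day 30, after culture in RPMI/B27, in RPMI_glcM/B27 (RPMI with 5 mM glucose, the level of HPLM) or in HPLM/B27 (human plasma-like medium, formulated after the nutrients of plasma). The B27 supplement was in every medium, and each group had 4 wells. Standard RPMI holds more glucose than the other media. Where values for the 3 media of Day 30 are given together, they stand in the order just named. Each SD below is the spread between 4 wells, and p-values measure only that spread.

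The Z-disc is the plate at each end of a sarcomere where actin filaments of opposite polarity are cross-linked by alpha-actinin and where titin and the desmin filaments attach. It is also a signalling site. LIM-domain and ankyrin-repeat proteins of the Z-disc and of titin's spring regions respond to stretch, and some of them also act in the nucleus. In heart muscle, mutations in several of these genes are known causes of cardiomyopathy, and ANKRD1 is among the transcripts that rise most readily with mechanical load.

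RefSeq promoter windows (250 bases before to 50 bases after a transcription start, GRCh38.p14) were on hand for 7 of the 10 genes, as 11 windows. CSRP3, DES and TCAP had no entry. Each window was searched on both strands for the CArG box (the element bound by serum response factor), the MEF2 site and the M-CAT element CATTCC (bound by TEAD factors), and no match overlapped another motif in the stretches shown. The CArG box was present in 1.29% of all 35116 windows, the MEF2 site in 2.99% and the M-CAT element in 14.03%. The stretches below are those of members that hold a match, shown because their transcripts are the ones compared in the rest of the text. Capitals mark the matches, and each sequence ends at the base before the transcription start. The ANKRD1 stretch (chr10:90921088-90921337, minus strand) holds 2 M-CAT elements, on the reverse strand of the promoter, 220 and 128 bases before the start. FHL2 (chr2:105438514-105438643, minus strand) has a CArG box 101 bases and a MEF2 site 31 bases before it, LDB3 (chr10:86668381-86668510, plus strand) a CArG box 57 bases before it, MYOZ2 (chr4:119135702-119135831, plus strand) a MEF2 site 52 bases before it and XIRP1 (chr3:39192596-39192725, minus strand) a MEF2 site 111 bases before it. Windows at other, distant starts of FHL2 hold an M-CAT element 27 bases and a CArG box 59 bases before the start. A further FHL2 window overlaps the one shown, and its CArG box (85 bases) and MEF2 site (15 bases) are the same letters. The other LDB3 window likewise overlaps the one shown, and its CArG box (110 bases) is the same one. No window of ACTN2 or NRAP holds any of the 3 motifs. A match describes these letters and is not a measured binding site.
ANKRD1: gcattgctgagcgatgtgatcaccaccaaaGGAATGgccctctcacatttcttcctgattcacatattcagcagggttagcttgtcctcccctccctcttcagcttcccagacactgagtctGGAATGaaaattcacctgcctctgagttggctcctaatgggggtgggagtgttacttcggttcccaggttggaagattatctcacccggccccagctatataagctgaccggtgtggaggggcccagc
FHL2: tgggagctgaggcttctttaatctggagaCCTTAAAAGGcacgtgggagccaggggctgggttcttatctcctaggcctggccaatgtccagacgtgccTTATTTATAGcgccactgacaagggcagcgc
LDB3: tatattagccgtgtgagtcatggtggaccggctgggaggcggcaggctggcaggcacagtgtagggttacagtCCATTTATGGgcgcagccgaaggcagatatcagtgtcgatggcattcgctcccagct
MYOZ2: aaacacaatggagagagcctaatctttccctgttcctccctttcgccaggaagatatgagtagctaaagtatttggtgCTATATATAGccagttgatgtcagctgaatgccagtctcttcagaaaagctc
XIRP1: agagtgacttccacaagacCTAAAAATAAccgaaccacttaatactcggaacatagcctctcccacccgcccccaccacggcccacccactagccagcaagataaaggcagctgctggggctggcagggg

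All 16 libraries carried the RNA of cardiomyocytes. The summed level of 10 cardiomyocyte markers (TNNT2, ACTC1, MYH6, MYH7 and others) lay between 15861 and 23391 TPM. MYOD1, MYF5, MYF6 and MYH8, markers of skeletal muscle, a tissue that shares most Z-disc genes, and MYH11 of smooth muscle were at 0 in every library. The skeletal muscle list of 10 genes summed to at most 8.45 TPM, and its member MYOG averaged 0.757 TPM at Day 16 and 1.26 to 1.71 TPM at Day 30. Other smooth muscle markers were expressed: that list of 6 genes summed to 172 to 576 TPM, with CNN1 averaging 136 to 186 TPM. Against Day 16, 3 to 5 of 6 fibroblast genes tested and 6 or 7 of 8 hepatic endoderm genes tested were lower, depending on the medium, while the hepatic gene ALB was higher in all 3 media. Over all genes tested, 17.8% to 22.4% were lower. Of 5 smooth muscle genes tested, 0, 3 and 3 were lower in the 3 media, and of 2 skeletal muscle genes tested 1 (TNNT3) was higher in each. Of the 10 cardiomyocyte genes tested, 2, 3 and 3 were higher and 1, 1 and 2 lower. All 3 pluripotency genes tested were lower in each medium, as was KDR, the 1 endothelial gene tested. Hepatic genes were also lower in each 5 mM glucose medium than in Day 30 RPMI/B27 (6 of 8 genes in each), with summed levels of 323 to 569 TPM in RPMI/B27 and 69.0 to 211 TPM in the 5 mM media. Between HPLM/B27 and RPMI_glcM/B27, 0 of the 35 marker genes tested passed in limma, 6 had an unadjusted p under 0.05, and 2 of 38 passed in limma-voom on recovered reads. In that comparison 11 of all 16122 genes passed in limma, and 268 genes in limma-voom. The part of such cells in the results below was not tested, and in bulk RNA a change in the number of cells of a type cannot be told apart from a change in RNA per cell. Libraries held 7744768 to 16183655 recovered reads. The mitochondrial ribosomal RNA RNR2 made up 41.4% to 43.9% of TPM at Day 16. It made up 41.0% to 48.1%, 42.0% to 45.5% and 46.2% to 48.3% in the 3 media. RN7SK made up 8.76% to 10.4% of TPM at Day 16 and 10.7% to 13.8% at Day 30. An alternative fit used TPM without these and other ribosomal and mitochondrial RNA genes. The mitochondrial ribosomal RNA RNR1 spanned 49.5 to 29276 TPM and was highest in replicate 4 of Day 30 RPMI/B27, which was the lowest of its group for 7 of the 10 genes. Replicate 4 of RPMI_glcM/B27, with 6806 TPM of RNR1, was the lowest of its group for 9 of the 10. Day 16 replicate 4, with the most RNR1 of its group (3793 TPM), was the lowest for 6 and the highest for 0. HPLM/B27 replicate 1, with the most in its group (6359 TPM), was the lowest for 4, as was its replicate 2 (138 TPM). Other libraries with much RNR1 were less often the lowest. HPLM/B27 replicate 4 (5889 TPM) was the highest of its group for 5 genes and the lowest for 1. Day 30 RPMI/B27 replicate 3 (14387 TPM) was the highest for 3 and the lowest for 2. RPMI_glcM/B27 replicate 3 (4872 TPM) was the lowest for 1 and the highest for 0. RNR1 was entered as a covariate in an alternative fit.

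**Figure D1:**
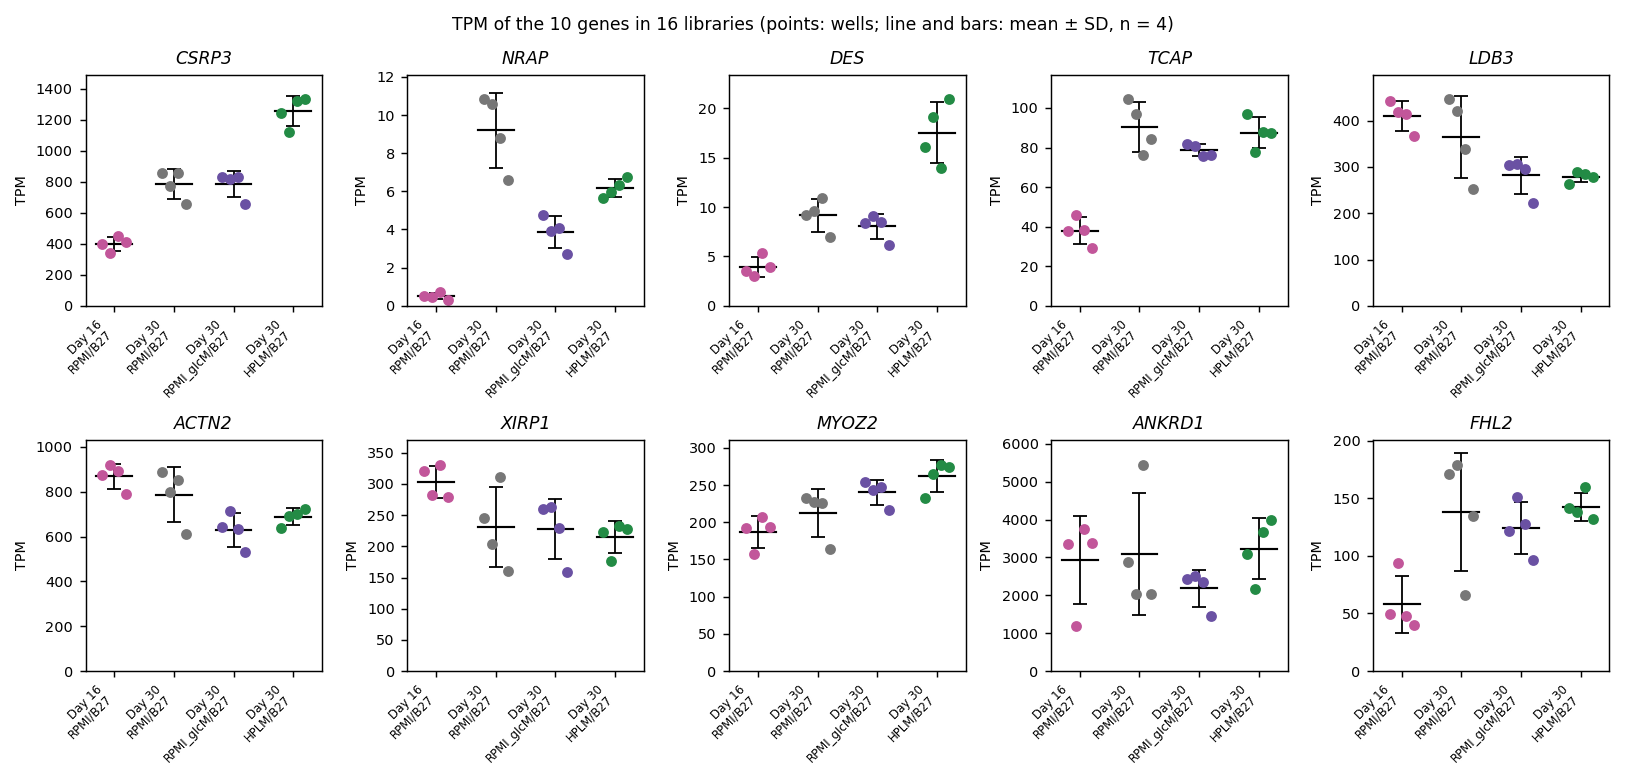
TPM (linear axis from 0) of each of the 10 genes in the 4 groups; points are the 4 wells of a group and the black line and bars their mean ± SD. CSRP3 and DES were highest in all 4 HPLM/B27 wells, NRAP was near 0 at Day 16 and highest in Day 30 RPMI/B27, and ANKRD1 overlapped between all 4 groups.

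CSRP3 encodes muscle LIM protein, a Z-disc scaffold of striated muscle (chr11:19182030-19201983, minus strand, 6 exons in the canonical transcript), and is overlapped by the antisense gene CSRP3-AS1, not analysed here. Its level was 400.2, 342, 450.4 and 413 TPM in the Day 16 wells, in order of replicate number. On Day 30 it was 858, 773, 857 and 656 TPM in RPMI/B27, 834, 819, 833 and 658 TPM in RPMI_glcM/B27, and 1246, 1120.2, 1320.1 and 1332 TPM in HPLM/B27. All Day 30 wells were above all Day 16 wells, the RPMI media overlapped almost completely, and every HPLM/B27 well was above every other well. In limma, fitted across all genes tested with Benjamini-Hochberg adjustment, CSRP3 rose from Day 16 by 0.97 on the log2(TPM + 1) scale in RPMI/B27 (SE 0.12, adjusted p = 8.64e-05) and by the same 0.97 in RPMI_glcM/B27 (SE 0.12, adjusted p = 3.73e-05). In HPLM/B27 the rise was 1.65 (SE 0.12, adjusted p = 2.02e-07), or 3.13-fold. At Day 30 it was higher in HPLM/B27 than in RPMI_glcM/B27 by 0.68 (SE 0.12, 1.60-fold, adjusted p = 0.0415) and than in RPMI/B27 by 0.68 (SE 0.12, 1.60-fold, adjusted p = 0.00537). The RPMI media differed by 0.00 (SE 0.12, adjusted p = 0.998). Against ACTN2 in the same library, a ratio that no scaling of a library can change, CSRP3 stood at 0.464 ± 0.0673 at Day 16, and at 1.00 ± 0.0492, 1.25 ± 0.0751 and 1.82 ± 0.143 in the 3 media (SD, n = 4). The ratio ranges of the 4 groups did not overlap. Between the RPMI media that gap lay in ACTN2, which averaged 787 TPM in RPMI/B27 and 630 TPM in RPMI_glcM/B27. CSRP3 averaged 786 TPM in both.

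CSRP2, the smooth muscle relative of CSRP3, fell from 321.5 ± 42.0 TPM at Day 16 to 174 ± 10.6 TPM in HPLM/B27 (log2 difference -0.87, adjusted p = 1.02e-04), and passed in the other media too (-0.50 in RPMI/B27 and -0.46 in RPMI_glcM/B27). With median-of-ratios scaling only the HPLM/B27 fall passed (-0.54, adjusted p = 0.0059). CSRP1, another paralog, averaged 21.0 ± 8.13 TPM at Day 16, 14.5 ± 10.9 TPM in Day 30 RPMI/B27 (log2 difference -0.62, adjusted p = 0.221) and 9.44 ± 1.82 TPM in HPLM/B27 (adjusted p = 0.0534), with wells that overlapped. Its fall to 7.39 ± 1.59 TPM in RPMI_glcM/B27 passed (log2 difference -1.31, adjusted p = 0.0167) in TPM but not with median-of-ratios scaling (-1.07, adjusted p = 0.0713).

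DES encodes desmin, the muscle intermediate filament that ties Z-discs to each other and to the cell surface (chr2:219418377-219426734, plus strand, 9 exons). It was 3.54, 3.00, 5.38 and 3.93 TPM at Day 16. The Day 30 wells had 9.21, 9.61, 11.0 and 6.93 TPM in RPMI/B27, 8.37, 9.13, 8.53 and 6.20 TPM in RPMI_glcM/B27, and 16.1, 19.1, 13.98 and 20.9 TPM in HPLM/B27. Day 16 lay below all other wells and HPLM/B27 above, with the RPMI media overlapping in between. DES rose from Day 16 by 1.04 (SE 0.18, adjusted p = 0.00107) in RPMI/B27, 0.88 (SE 0.18, adjusted p = 0.00233) in RPMI_glcM/B27 and 1.91 (SE 0.18, adjusted p = 3.12e-06) in HPLM/B27. At Day 30 HPLM/B27 exceeded RPMI_glcM/B27 by 1.03 (SE 0.18, 2.04-fold, adjusted p = 0.0387) and RPMI/B27 by 0.87 (SE 0.18, 1.82-fold, adjusted p = 0.0146).

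Desmin transcripts were few in these cells. The Day 16 values rest on 27 to 44 reads per library and the HPLM/B27 values on 162 to 194, and DES ranked 4264 of 16122 genes even in HPLM/B27. VIM, the intermediate filament of mesenchymal and immature cells, was at 331.5 ± 61.8 TPM at Day 16 and 226 ± 22.2 TPM in HPLM/B27. This fall passed in TPM (log2 difference -0.54, adjusted p = 0.0212), where the median difference of all genes tested was -0.29. VIM also fell in RPMI/B27 (-0.68, adjusted p = 0.00860) and in RPMI_glcM/B27 (-0.60, adjusted p = 0.0131), beside medians of -0.28 and -0.22. The ratio of DES to VIM was 0.0124 ± 0.00433 at Day 16, and 0.0455 ± 0.0131, 0.0371 ± 0.00241 and 0.0783 ± 0.0164 in the 3 media (SD, n = 4). NES, the filament protein nestin, averaged 404 ± 89.9 TPM at Day 16 and was lower in all 3 Day 30 media, at 206 ± 17.4 TPM in RPMI_glcM/B27 (log2 difference -0.94, adjusted p = 0.0115). None of its 3 calls held after rescaling by median-of-ratios factors, which set the median ratio between libraries to 1 (-0.68, adjusted p = 0.143 in RPMI_glcM/B27).

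CSRP3 and DES were the 2 members that passed between HPLM/B27 and RPMI_glcM/B27, where 0.0682% of all genes tested passed (0.0496% upward), and the 2 that passed between HPLM/B27 and RPMI/B27, where 2.41% did (1.51% upward). The first of these shares is 11 genes in TPM, and 262 passed with median-of-ratios scaling, 268 in limma-voom and 1 to 35 with 1 library left out. Of the 10 members, 3 were higher and 0 lower in that comparison with median-of-ratios scaling, and likewise in limma-voom. The same counts held in TPM without ribosomal, mitochondrial and RN7SK genes, where 164 of all genes passed. Of the 10 genes, 3 (CSRP3, DES and NRAP) had HPLM/B27 and RPMI_glcM/B27 wells that did not overlap, as 7.28% of all genes tested did. With only the 2 groups in the fit, adjusted p against RPMI/B27 was 0.0719 for CSRP3 and 0.0919 for DES, and the DES call was lost without HPLM/B27 replicate 2 or 4 (adjusted p up to 0.0580). In TPM the calls against RPMI_glcM/B27 lay near the threshold. With all genes above 0 in the fit, adjusted p there was 0.0967 for CSRP3 and 0.0568 for DES at the same differences. Leaving out any 1 well of HPLM/B27 or RPMI_glcM/B27, or Day 16 replicate 1 or 4, ended both calls, and leaving out Day 16 replicate 3 ended that of CSRP3. Adjusted p ranged up to 0.161 over the 16 leave-outs, with log2 differences of 0.59 to 0.73 for CSRP3 and 0.92 to 1.13 for DES.

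NRAP encodes nebulin-related anchoring protein, a scaffold of myofibril assembly that is kept at the intercalated disc (chr10:113588714-113664041, minus strand, 42 exons). At Day 16 it was barely detected, at 0.528, 0.451, 0.744 and 0.328 TPM or 8 to 15 reads per library. It reached 10.8, 10.6, 8.80 and 6.59 TPM in Day 30 RPMI/B27, 4.76, 3.91, 4.09 and 2.71 TPM in RPMI_glcM/B27, and 5.68, 5.96, 6.34 and 6.73 TPM in HPLM/B27. Every Day 30 well was above every Day 16 well, RPMI_glcM/B27 lay below both other Day 30 groups, and HPLM/B27 overlapped RPMI/B27 through replicate 4 of each. The rise from Day 16 was 2.74 in RPMI/B27 (SE 0.17, adjusted p = 1.03e-07), 1.68 in RPMI_glcM/B27 (SE 0.17, adjusted p = 6.93e-06) and 2.25 in HPLM/B27 (SE 0.17, adjusted p = 3.57e-07). For a transcript this low the pseudocount of 1 TPM understates the change. NRAP was the one member to pass between the RPMI media, where 2.2% of all genes tested passed (0.837% downward), and was lower with 5 mM glucose by 1.06 (SE 0.17, 2.09-fold, adjusted p = 0.00392). With only those 2 groups in the fit, adjusted p was 0.0746.

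Between HPLM/B27 and RPMI_glcM/B27, NRAP differed by 0.58 (SE 0.17, adjusted p = 0.341) with HPLM/B27 higher in all wells. Under median-of-ratios scaling this difference passed (0.65, adjusted p = 0.00849). The difference between HPLM/B27 and RPMI/B27 was -0.49 (SE 0.17, adjusted p = 0.161), which passed without replicate 4 of RPMI/B27 (-0.62, adjusted p = 0.0483). NRAP overlaps HABP2 on the other strand, and whether reads were counted by strand is not stated in the sources used here. HABP2 fell from 4.23 to 5.46 TPM at Day 16 to between 0.274 and 2.71 TPM at Day 30, the opposite direction to NRAP. Between the media of Day 30 its differences had the same sign as those of NRAP: -0.99 for RPMI_glcM/B27 against RPMI/B27 (adjusted p = 0.0121), -0.53 for HPLM/B27 against RPMI/B27 (adjusted p = 0.180) and 0.46 for HPLM/B27 against RPMI_glcM/B27 (adjusted p = 0.680). The part of HABP2 reads in the NRAP values was not tested.

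TCAP encodes telethonin, the small cap on the amino-terminal end of titin (chr17:39665349-39666554, plus strand, 2 exons). Its Day 16 levels were 37.8, 46.1, 38.2 and 29.4 TPM, and the 12 Day 30 wells ranged from 75.8 to 104 TPM. There was no overlap between the days and overlap between all media. TCAP rose by 1.24 in RPMI/B27 (SE 0.13, adjusted p = 2.14e-05), 1.05 in RPMI_glcM/B27 (SE 0.13, adjusted p = 4.73e-05) and 1.197 in HPLM/B27 (SE 0.13, adjusted p = 1.56e-05). HPLM/B27 and RPMI_glcM/B27 differed by 0.15 (SE 0.13, adjusted p = 0.937).

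FHL2 encodes a LIM-domain protein that binds titin's cardiac spring region and acts as a transcriptional cofactor (chr2:105357712-105438529, minus strand, 7 exons). Its levels were 49.3, 94.0, 47.9 and 40.2 TPM at Day 16 and 171, 179, 66.4 and 135 TPM in Day 30 RPMI/B27, groups that overlap through replicate 2 of Day 16 and replicate 3 of RPMI/B27. RPMI_glcM/B27 had 121, 151, 128 and 96.1 TPM and HPLM/B27 141, 138, 160.1 and 132 TPM, all above Day 16. FHL2 rose by 1.22 (SE 0.28, adjusted p = 0.00732), 1.15 (SE 0.28, adjusted p = 0.00803) and 1.36 (SE 0.28, adjusted p = 0.00255) in the 3 media. With only the 2 groups in the fit, the RPMI/B27 rise had an adjusted p of 0.0547. Its paralog FHL3 fell in all 3 media, from 7.03 ± 1.89 TPM at Day 16 to 1.74 ± 0.908 TPM in RPMI_glcM/B27 (log2 difference -1.57, adjusted p = 2.23e-04).

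**Figure D2:**
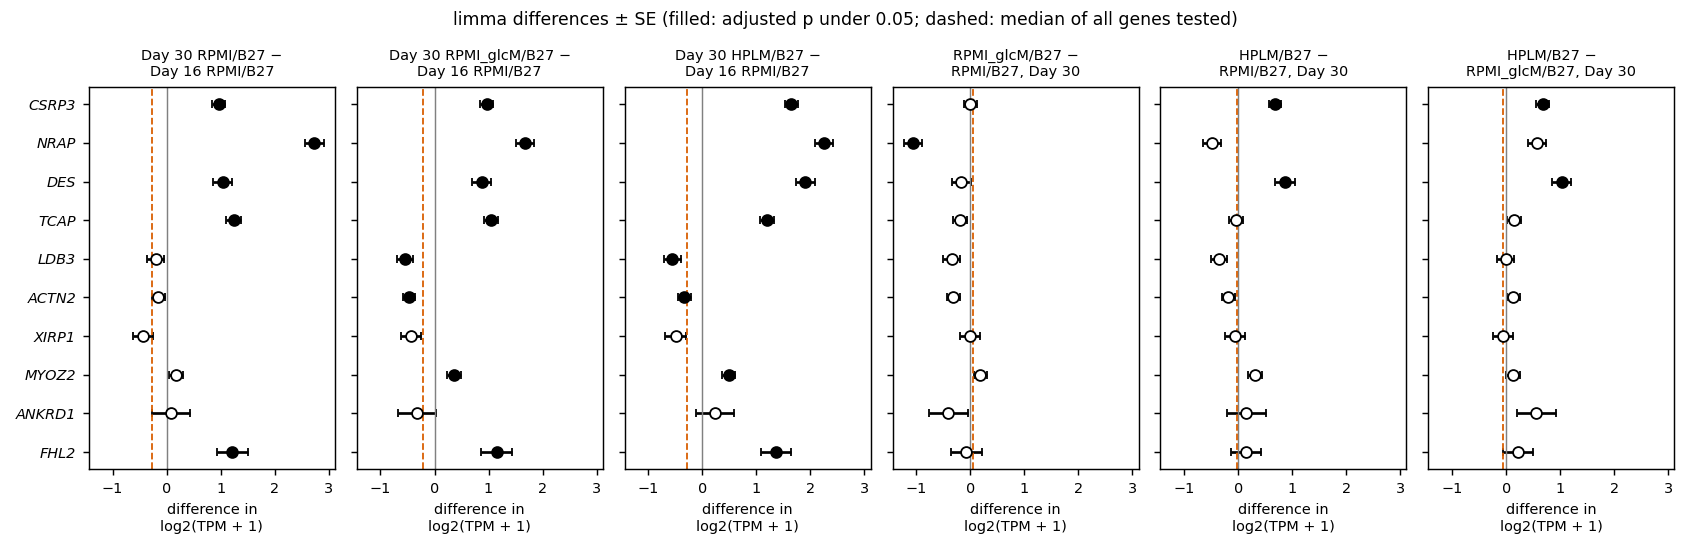
Differences in log2(TPM + 1) from limma (x axis, ± SE) for the 10 genes (y axis) in the 6 comparisons; filled points have an adjusted p under 0.05 and the dashed line is the median of all genes tested. Filled points in the comparisons with Day 16 lie mostly to the right, where the dashed lines lie to the left of 0, and in the last panel CSRP3 and DES are the only filled ones.

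ACTN2 encodes alpha-actinin-2, the actin cross-linker that builds the Z-disc lattice, and LDB3 encodes a PDZ and LIM protein that holds on to it. They were abundant already at Day 16. ACTN2 (chr1:236686499-236764631, plus strand, 21 exons) had 873, 921, 893 and 791 TPM at Day 16, 886, 799.9, 852 and 612 TPM in Day 30 RPMI/B27, 642, 713, 633 and 529 TPM in RPMI_glcM/B27 and 637, 691, 702 and 724 TPM in HPLM/B27. Both 5 mM glucose media lay below Day 16 in every well, and RPMI/B27 overlapped all groups. From Day 16 ACTN2 fell by 0.47 in RPMI_glcM/B27 (SE 0.12, adjusted p = 0.0101) and by 0.34 in HPLM/B27 (SE 0.12, adjusted p = 0.0490).

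LDB3 (chr10:86666788-86736072, plus strand, 14 exons) had 443, 419, 415 and 366 TPM at Day 16 and 446, 422, 338 and 252 TPM in Day 30 RPMI/B27. The 5 mM glucose media had 304, 307, 296 and 223 TPM (RPMI_glcM/B27) and 262, 289.8, 284 and 277 TPM (HPLM/B27), all under the Day 16 wells. LDB3 fell by 0.55 in RPMI_glcM/B27 (SE 0.15, adjusted p = 0.0178) and by 0.56 in HPLM/B27 (SE 0.15, adjusted p = 0.0149). In RPMI/B27 the difference was -0.20 (SE 0.15, adjusted p = 0.347), with wells that overlapped, and 0.13 after median-of-ratios scaling.

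The ACTN2 falls depended on the scale. All genes tested had a median difference from Day 16 of -0.28, -0.22 and -0.29 in the 3 media when measured in TPM. Median-of-ratios scaling removes that shift, and ACTN2 in HPLM/B27 then differed from Day 16 by 0.00 (adjusted p = 0.989), ACTN2 in RPMI_glcM/B27 by -0.21 (adjusted p = 0.183), and LDB3 was still lower in both. Under the same scaling LDB3 was also lower than in Day 30 RPMI/B27, by -0.42 in RPMI_glcM/B27 (adjusted p = 0.00266) and -0.35 in HPLM/B27 (adjusted p = 0.00668), where TPM gave -0.35 (adjusted p = 0.295) and -0.35 (adjusted p = 0.278). In TPM the outcome depended on replicate 4 of Day 30 RPMI/B27, the lowest LDB3 well of its group: without it both differences passed (adjusted p = 0.0407 and 0.0312). ACTN2 then passed against RPMI_glcM/B27 as well (-0.43, adjusted p = 0.0312). The ACTN2 call in HPLM/B27 was lost in 11 of 16 leave-outs, those of Day 16 replicate 1, 2 or 3, RPMI/B27 replicate 2, RPMI_glcM/B27 replicate 1, 2 or 3 and any HPLM/B27 well (adjusted p up to 0.125). The LDB3 call in RPMI_glcM/B27 was lost without Day 16 replicate 1 or RPMI_glcM/B27 replicate 4 (adjusted p up to 0.0708).

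ACTN4, a non-muscle alpha-actinin, went from 49.4 ± 3.11 TPM at Day 16 to 24.7 ± 9.33, 17.2 ± 3.55 and 18.6 ± 3.10 TPM in the 3 media, a fall that passed in each medium and after median-of-ratios scaling. ACTN1, the other non-muscle form, fell to 43.9 ± 6.05 TPM in RPMI_glcM/B27 from 95.8 ± 13.7 TPM (log2 difference -1.11, adjusted p = 0.00288) and also in HPLM/B27 (-0.84, adjusted p = 0.0146), the latter not with median-of-ratios scaling (-0.50, adjusted p = 0.212). In RPMI/B27 it averaged 68.6 ± 32.8 TPM, overlapped Day 16 and did not pass (-0.57, adjusted p = 0.0865). ACTN3, the fast skeletal muscle form, stayed under 1 TPM on average in every group.

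MYOZ2 encodes calsarcin-1, which tethers calcineurin to alpha-actinin (chr4:119135832-119187789, plus strand, 6 exons). It was 193, 157, 207 and 194 TPM at Day 16, 232, 227, 227 and 164 TPM in Day 30 RPMI/B27, 254, 243, 247 and 216 TPM in RPMI_glcM/B27 and 232, 265, 278 and 274 TPM in HPLM/B27. Both 5 mM glucose media were above Day 16 in every well. The rise was 0.36 in RPMI_glcM/B27 (SE 0.12, adjusted p = 0.0472) and 0.49 in HPLM/B27 (SE 0.12, adjusted p = 0.00953). The RPMI/B27 difference of 0.17 (SE 0.12, adjusted p = 0.319) passed after median-of-ratios scaling (0.51, adjusted p = 0.0152), and the RPMI_glcM/B27 call was lost in 12 of 16 leave-outs, all but those of a Day 30 RPMI/B27 well (adjusted p up to 0.150).

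XIRP1 encodes Xin, an actin-binding repeat protein of the intercalated disc and of remodelling myofibrils (chr3:39183215-39192595, minus strand, 2 exons). It was at 320.3, 283, 331 and 279 TPM at Day 16 and between 159 and 311 TPM in the 12 Day 30 wells. Every 5 mM glucose well was below every Day 16 well, but no difference passed: -0.43 in RPMI/B27 (SE 0.19, adjusted p = 0.106), -0.43 in RPMI_glcM/B27 (SE 0.19, adjusted p = 0.112) and -0.50 in HPLM/B27 (SE 0.19, adjusted p = 0.0605). The HPLM/B27 difference passed without replicate 3 or 4 of Day 30 RPMI/B27 or replicate 4 of RPMI_glcM/B27 (adjusted p = 0.0305 to 0.0371), and that of RPMI/B27 without its replicate 3 (-0.59, adjusted p = 0.0391). XIRP2, the other Xin gene, rose in all 3 media, from 7.25 ± 1.37 TPM at Day 16 to 18.9 ± 4.80, 13.9 ± 3.75 and 26.0 ± 3.02 TPM (log2 differences 1.25, 0.84 and 1.72). It was also higher in every HPLM/B27 well than in every RPMI_glcM/B27 well, by 0.88 (adjusted p = 0.110).

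ANKRD1 encodes the cardiac ankyrin repeat protein, which binds titin in the I-band and acts in the nucleus (chr10:90912096-90921087, minus strand, 9 exons). It was the most abundant of the 10 genes, ranking between 8 and 19 of 16122 genes in each group. Its wells had 3358, 1199, 3749.7 and 3380.3 TPM at Day 16, 2867, 2022, 5449.8 and 2044 TPM in Day 30 RPMI/B27, 2420.2, 2505, 2359 and 1449 TPM in RPMI_glcM/B27 and 3094, 2161, 3674 and 3983 TPM in HPLM/B27. All 4 groups overlapped, and the coefficient of variation between wells of a group was 22.6% to 52.3%, against 5.33% to 15.5% for ACTN2. No comparison passed: the log2 difference between HPLM/B27 and RPMI_glcM/B27 was 0.56 (SE 0.36, adjusted p = 0.880) and those from Day 16 were between -0.32 and 0.23 (adjusted p of 0.558 to 0.877). Each library held at least 9482 reads of ANKRD1.

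The Day 16 well with the lowest ANKRD1 (replicate 2, 1199 TPM) had the highest FHL2 (94.0 TPM), and the Day 30 RPMI/B27 well with the highest ANKRD1 (replicate 3, 5449.8 TPM) had the lowest FHL2 (66.4 TPM). In RPMI_glcM/B27, by contrast, the wells with the lowest and the highest ANKRD1 (replicates 4 and 2) were also those with the lowest and the highest FHL2 (96.1 and 151 TPM). After subtracting group means, Pearson's r between them on the log2(TPM + 1) scale was -0.656 over the 16 libraries. The natriuretic peptide gene NPPB, chosen after its values were seen, was highest and lowest in the same wells as ANKRD1 at Day 16 and in both 5 mM glucose media, with r = 0.978 after subtracting group means. CSRP3 (0.842) and XIRP1 (0.744) also varied with ANKRD1 in this measure. These points share libraries and so depth and scaling, and the correlations are descriptions.

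**Figure D3:**
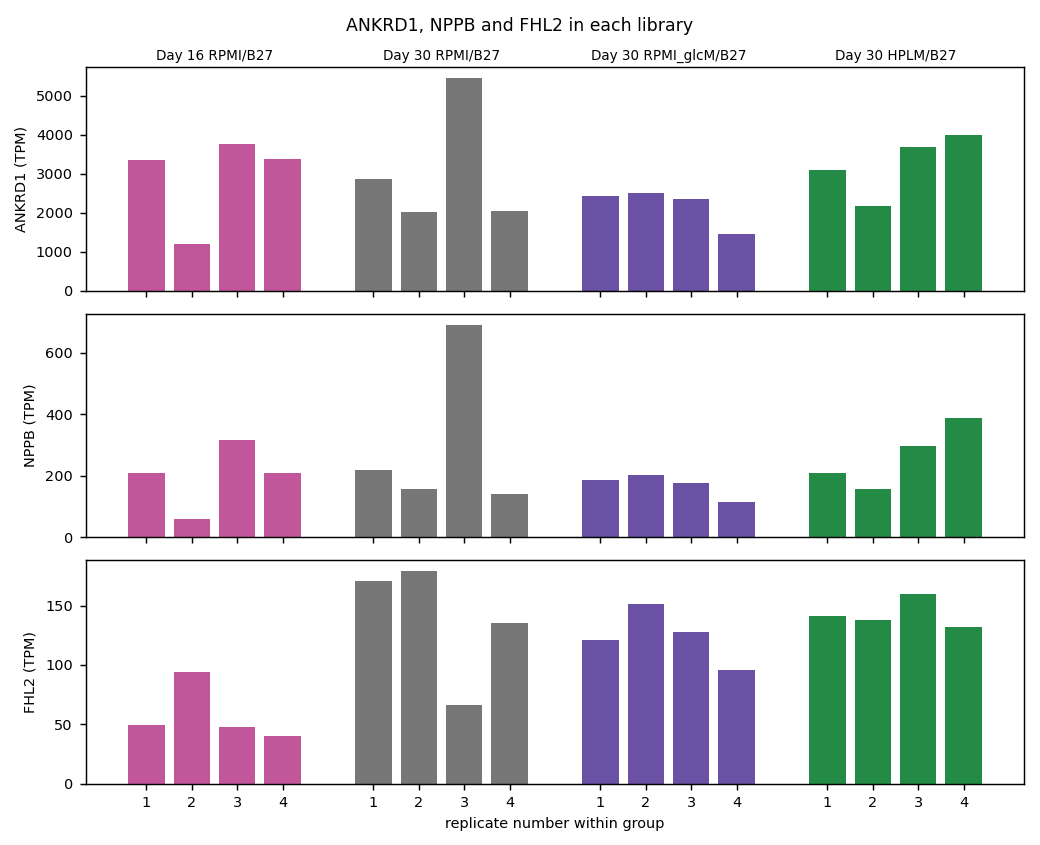
TPM (linear axes from 0) of ANKRD1, NPPB and FHL2 in each of the 16 libraries, by group and replicate number. In replicate 2 of Day 16, ANKRD1 and NPPB are low and FHL2 high; in replicate 3 of Day 30 RPMI/B27, ANKRD1 (5449.8 TPM) and NPPB (693 TPM) are high and FHL2 (66.4 TPM) low.

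As a list, most of the 10 genes that passed against Day 16 were higher. The list was chosen with earlier results of these data known, so its counts beside all genes are descriptions. Most of all genes that passed were lower in TPM, but with median-of-ratios scaling 49.2%, 48.6% and 50.8% of those passing were higher in the 3 media. Of all 16122 genes tested, 1389, 2156 and 2074 then rose and 1437, 2282 and 2012 fell. Of the 10 members, 6 then rose in each medium while 0, 1 and 1 fell. In TPM, from Day 16 to Day 30 in RPMI/B27, 5 rose and 0 fell (1 had an unadjusted p under 0.05 downward, and 0 fell in limma-voom), against 19.9% of all genes tested that passed (2.08% upward and 17.8% downward). In RPMI_glcM/B27, 6 rose and 2 fell against 21.1% of all genes (3.34% upward and 17.8% downward), and in HPLM/B27 6 rose and 2 fell against 25.4% (3% upward and 22.4% downward). The median log2 difference of the 10 was 0.57, 0.62 and 0.84 in the 3 media, beside -0.28, -0.22 and -0.29 over all genes tested. Wells did not overlap with Day 16 for 4 of the 10 genes in RPMI/B27 (17.9% of all genes tested), 9 in RPMI_glcM/B27 (30.2%) and 9 in HPLM/B27 (35.9%). These 3 comparisons share the Day 16 libraries. Between HPLM/B27 and RPMI_glcM/B27 the median was 0.18, beside -0.06 over all genes tested.

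Related genes, on lists written with earlier results of these data known, gave the counts below. Of all genes tested, 2.08%, 3.34% and 3% rose and 17.8%, 17.8% and 22.4% fell in the 3 media in TPM. With median-of-ratios scaling 1389, 2156 and 2074 of all 16122 genes rose and 1437, 2282 and 2012 fell. Of the 21 tested paralogs (26 listed), 3 rose and 8 fell in RPMI/B27, 1 rose and 10 fell in RPMI_glcM/B27, and 2 rose and 8 fell in HPLM/B27, with XIRP2 and PDLIM3 (a Z-disc PDZ and LIM protein) rising in RPMI/B27 and HPLM/B27. Under median-of-ratios scaling the counts were 4 and 4, 2 and 6, and 4 and 6. LASP1, an actin-binding relative of nebulette, fell in all 3 media, to 8.94 ± 0.496 TPM in HPLM/B27 from 19.2 ± 2.03 TPM (log2 difference -1.02, adjusted p = 2.99e-04). PDLIM3 was lower in RPMI_glcM/B27 than in RPMI/B27 (35.9 ± 6.13 against 74.4 ± 20.05 TPM, log2 difference -1.002, adjusted p = 0.0108), and was the one paralog to pass between Day 30 groups in TPM. With median-of-ratios scaling, 3 paralogs were higher and 0 lower in HPLM/B27 than in RPMI_glcM/B27 (262 of all genes passed). Against RPMI/B27, 1 was higher and 1 lower in HPLM/B27 (2083 of all genes), and 0 were higher and 5 lower in RPMI_glcM/B27 (1945 of all genes).

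Of 31 other Z-disc, chaperone and turnover genes tested, 2, 3 and 3 rose and 3, 5 and 5 fell in the 3 media. Over all genes tested, 2.08%, 3.34% and 3% rose and 17.8%, 17.8% and 22.4% fell. CRYAB, a small heat shock protein that protects desmin and titin, rose to 196 ± 8.69, 204 ± 22.2 and 194 ± 15.0 TPM from 86.4 ± 9.25 TPM. TRIM63, a muscle ubiquitin ligase, rose to 149 ± 13.3, 180 ± 5.00 and 171 ± 9.36 TPM from 85.9 ± 7.25 TPM. The list's counts depended on scaling: with median-of-ratios factors 12, 12 and 15 rose and 1, 3 and 3 fell. Of all 16122 genes, 1389, 2156 and 2074 then rose and 1437, 2282 and 2012 fell. SYNPO2, an actin-bundling Z-disc protein, was lower in both 5 mM glucose media than in RPMI/B27 (log2 differences -0.65 and -0.69, adjusted p = 0.0387 and 0.0279).

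At the costamere, where Z-discs attach to the membrane, 24 genes were tested. Of these, 1 rose and 5 fell in RPMI/B27, 0 rose and 7 fell in RPMI_glcM/B27 (1 had an unadjusted p under 0.05 upward and 4 rose in limma-voom), and 1 rose and 4 fell in HPLM/B27. Over all genes tested, 2.08%, 3.34% and 3% rose and 17.8%, 17.8% and 22.4% fell. Their medians of -0.28, -0.22 and -0.22 stood beside -0.28, -0.22 and -0.29 over all genes tested, and with median-of-ratios factors 5, 4 and 4 rose and 1, 3 and 1 fell. UTRN, the dystrophin relative utrophin, was lower in RPMI_glcM/B27 (28.8 ± 2.66 TPM) and in HPLM/B27 (29.4 ± 2.79 TPM) than in Day 30 RPMI/B27 (41.4 ± 5.83 TPM; log2 differences -0.51 and -0.48, adjusted p = 0.0348 and 0.0447). SSPN, sarcospan of the dystrophin complex, rose in HPLM/B27 (log2 difference 0.73, adjusted p = 0.00201).

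Targets of YAP and TEAD, a pathway that reads cell tension and includes ANKRD1 among its known targets, were tested as a list of 22 genes (19 tested). In the 3 media, 8, 10 and 12 fell and 0 rose in each (0 with an unadjusted p under 0.05 upward, and 1, 2 and 0 in limma-voom). Over all genes tested, 17.8%, 17.8% and 22.4% fell and 2.08%, 3.34% and 3% rose. CCDC80, a matrix protein, fell from 45.03 ± 3.82 TPM to 17.0 ± 1.63, 11.0 ± 1.49 and 12.2 ± 1.67 TPM, and was lower in RPMI_glcM/B27 than in RPMI/B27 (log2 difference -0.59, adjusted p = 0.0204). CCN2, connective tissue growth factor, fell from 100.01 ± 24.4 TPM to 42.4 ± 18.8 TPM in RPMI/B27, 28.4 ± 4.70 TPM in RPMI_glcM/B27 and 32.1 ± 11.5 TPM in HPLM/B27, and the RPMI/B27 fall was lost with median-of-ratios factors (adjusted p = 0.0613). TGFB2 and AXL fell in all 3 media, TGFB2 from 247 ± 22.4 TPM to 78.5 ± 3.06 TPM in HPLM/B27. With median-of-ratios factors 4, 9 and 8 of the list fell and 1, 2 and 0 rose. The summed level of 10 fibroblast markers averaged 310 TPM at Day 16 and 233, 142 and 150 TPM in the 3 media, and its part in these falls was not tested.

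Between HPLM/B27 and RPMI_glcM/B27, limma called 0 genes of the paralog, other Z-disc, costamere and YAP/TEAD lists. It called only 11 (0.0682%) of all 16122 genes tested. At an unadjusted p under 0.05 there were 5, 0, 3 and 1 genes of these lists. Limma-voom called 3, 0, 4 and 1, beside 268 of all its genes.

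**Figure D4:**
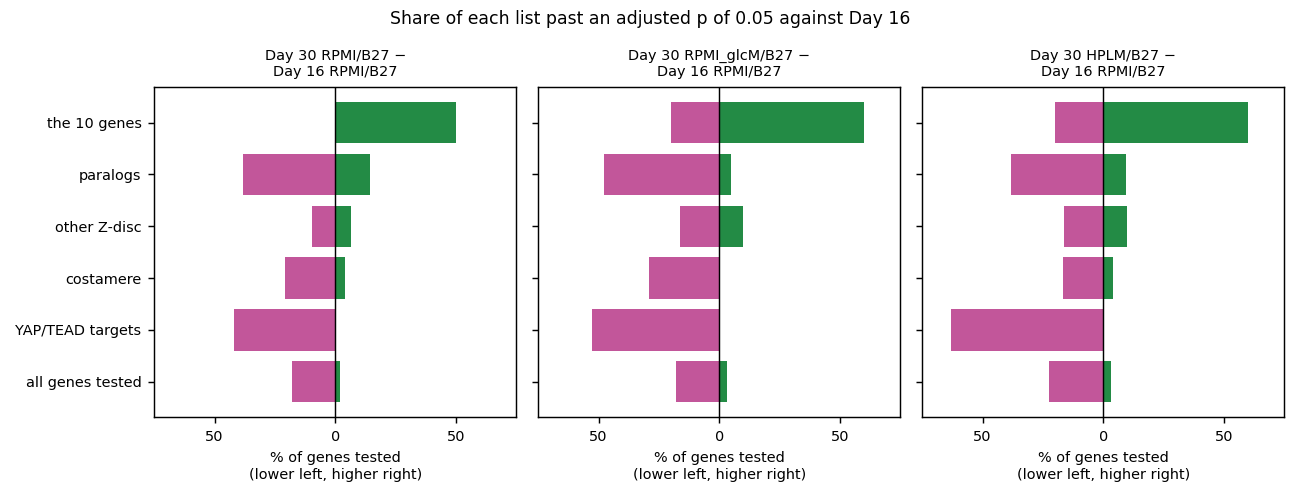
Share of the tested genes of each list that passed at an adjusted p under 0.05 against Day 16 (percent, lower to the left and higher to the right), with all genes tested in the last row. The 10 genes show 5, 6 and 6 of 10 higher in the 3 media, and the YAP/TEAD targets 8, 10 and 12 of 19 lower.

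By pattern over the 16 libraries, among the 6833 genes that averaged 10 TPM or more, the genes most like CSRP3 were NPY6R (Pearson's r = 0.944), XIRP2 (0.943), SLMAP (0.924), BANCR (0.917) and FAM129A (0.915). Those most like DES were CSRP3 (0.966), CASQ2 (0.922), XIRP2 (0.917), CAV1 (0.909) and DYNC1LI1 (0.901). NRAP was most like COL21A1 (0.983), PRRX1 (0.963), JAK2 (0.948), GORAB (0.943) and MYL2 (0.940), the ventricular myosin light chain. CAV1, caveolin of membrane pits, was itself higher in HPLM/B27 than in RPMI_glcM/B27 (log2 difference 1.05, adjusted p = 0.0220). The 16 points are 4 groups of wells that share scaling, so these values describe likeness only.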

How the data were processed

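Total RNA of WTC11 hPSC-CMs (16 wells, 4 per group) was sequenced from libraries of the Takara SMARTer Stranded Total RNA kit. Per the sources used, the authors aligned reads with STAR 2.5.3a to hg38 with a decoy sequence and counted them with featureCounts 2.0.3, with R 4.1.3 named in their processing notes. The deposited values are TPM per gene, summing to 1000000 in each library. The annotation, gene lengths, strand setting and tool behind the TPM are not given in the sources used here. Whole reads were recovered from ratios of low TPM values: all 31047 genes above 0 gave whole reads, and 15423 of 15423 genes with at least 10 reads gave whole lengths within 0.05 bases. Depth limits low genes, since 1 read on 1 kb was worth 0.139 to 0.314 TPM.

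The 16122 genes averaging 1 TPM or more were fitted as log2(TPM + 1) with limma 3.58.1 (R 4.3.3, moderated, 12 residual degrees of freedom), 4 groups in one fit and 6 two-sided contrasts, with Benjamini-Hochberg adjustment over all genes tested and a threshold of 0.05. Tables and figures used Python 3.11.15, numpy 2.4.6, pandas 2.3.3 and matplotlib 3.10.9. The fit and the recovery of reads were tested on simulated data. The members and lists were chosen with earlier results of these data known. Of each list, the genes named are those past the threshold without overlap between groups, by size of change (up to 5 per Day 30 comparison, up to 4 per comparison with Day 16), and paralogs beside their member. A result that this rule would name is not reported here. Alternatives were a pseudocount of 0.1, no filter or 5 TPM, median-of-ratios scaling, TPM without 40 ribosomal, mitochondrial and RN7SK genes, only the 2 groups compared, a replicate block, limma-voom on recovered reads, RNR1 as a covariate, and each library left out. Promoters are RefSeq, GRCh38.p14.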

Additional observations from a re-analysis of the deposited data

Results flagged for a closer look

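Among the 40 combinations of gene and group checked, 6 held a well that stood apart from the other 3 by more than Dixon's limit for 4 values, and chance flags about 1 in 20. Replicate 4 of RPMI_glcM/B27 was low for CSRP3 (657.5 TPM), LDB3 (223.1 TPM) and ANKRD1 (1449 TPM). Replicate 4 of Day 30 RPMI/B27 was low for MYOZ2 (163.8 TPM). Replicate 2 of Day 16 was low for ANKRD1 (1199 TPM) and high for FHL2 (94.05 TPM).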

How the results depend on the processing

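Of 1494 differences of the 10 genes recomputed under an alternative, 1351 kept their direction and side of the threshold, 60 lost a call, 35 gained one and 48 changed sign. ANKRD1 passed in no comparison under any alternative run. Settings are given in the order median-of-ratios scaling, TPM without ribosomal, mitochondrial and RN7SK genes, only the 2 groups, limma-voom and RNR1 as a covariate. All genes passing then numbered 262, 164, 33, 268 and 91 for HPLM/B27 against RPMI_glcM/B27, 2083, 1660, 81, 2484 and 1104 for HPLM/B27 against RPMI/B27, and 1945, 1504, 45, 1993 and 727 for RPMI_glcM/B27 against RPMI/B27, where TPM gave 11, 388 and 354. RPMI/B27 against Day 16 gave 998 with only the 2 groups and 1388 with RNR1, beside 3203. For HPLM/B27 against RPMI_glcM/B27, members passing were 3 with median-of-ratios scaling, 3 without the RNA genes and 3 in limma-voom. With all genes above 0 they were 0. Members passing were 4, 5, 0, 4 and 4 for HPLM/B27 against RPMI/B27, and 3, 3, 0, 3 and 3 for RPMI_glcM/B27 against RPMI/B27. The last was also 0 at 5 TPM, where NRAP is left out. The share of calls that were higher went from 11.8% to 50.8% (HPLM/B27), 15.8% to 48.6% (RPMI_glcM/B27) and 10.5% to 49.2% (RPMI/B27) against Day 16 with median-of-ratios scaling (36.0%, 35.0% and 31.1% without the 40 RNA genes). Between Day 30 groups it went from 72.7% to 61.5% (HPLM/B27 against RPMI_glcM/B27) and 61.9% to 51.2% (RPMI_glcM/B27 against RPMI/B27).

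Signs changed for HPLM/B27 against RPMI_glcM/B27 in LDB3 (0.067 with median-of-ratios, 0.052 without the RNA genes, 0.067 in voom) and XIRP1 (0.013 with median-of-ratios, 0.0091 in voom). For HPLM/B27 against RPMI/B27, FHL2 was -0.056 with RNR1. For RPMI_glcM/B27 against RPMI/B27, CSRP3 was -0.073, -0.056, -0.068 and -0.0064 with median-of-ratios, without the RNA genes, in voom and with RNR1. For RPMI/B27 against Day 16, LDB3 was 0.13, 0.039, 0.14 and 0.041 in that order, ACTN2 0.18, 0.087 and 0.18 in the first 3, and ANKRD1 -0.14 with RNR1. For HPLM/B27 against Day 16, ACTN2 was 0.0031 with median-of-ratios and 0.0083 in voom. None of these sign changes involved a difference past the threshold except that of ACTN2 in HPLM/B27 against Day 16, and the cause was not tested.

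Leaving out 1 library moved the number of all genes passing between 1 and 35 (HPLM/B27 against RPMI_glcM/B27), 187 and 519 (HPLM/B27 against RPMI/B27), 143 and 441 (RPMI_glcM/B27 against RPMI/B27), 1761 and 5012 (RPMI/B27 against Day 16), 2322 and 4105 (RPMI_glcM/B27) and 2820 and 5050 (HPLM/B27). Members passing ranged in the same order from 0 to 2, 1 to 4, 1 to 3, 5 to 6, 6 to 8 and 7 to 9. Differences whose sign changed were those of ANKRD1 in HPLM/B27 against Day 16 (-0.15 to 0.42), RPMI/B27 against Day 16 (-0.30 to 0.25) and HPLM/B27 against RPMI/B27 (-0.012 to 0.46). In the last comparison they were also those of FHL2 (-0.17 to 0.30), TCAP (-0.12 to 0.031) and XIRP1 (-0.22 to 0.094). HPLM/B27 against RPMI_glcM/B27 gave LDB3 (-0.12 to 0.035) and XIRP1 (-0.23 to 0.028), and RPMI_glcM/B27 against RPMI/B27 gave CSRP3 (-0.083 to 0.085), FHL2 (-0.39 to 0.086) and XIRP1 (-0.16 to 0.16). None of these passed.

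Replicate numbers were not taken to pair the wells, because deviations of same-numbered wells correlated between -0.239 and 0.442 and not every pair was over 0.1; those of replicate 4 lay between 0.13 and 0.391. With the replicate block, 48, 732 and 721 genes passed for HPLM/B27 against RPMI_glcM/B27, HPLM/B27 against RPMI/B27 and RPMI_glcM/B27 against RPMI/B27, and XIRP1 also passed against Day 16 in RPMI/B27 (-0.43, adjusted p = 0.0495) and HPLM/B27 (adjusted p = 0.0251).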

Other observations

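MYL2, among the genes most like NRAP, rose by 3.48, 3.05 and 3.81 on the log2 scale in the 3 media of Day 30 (RPMI/B27, RPMI_glcM/B27, HPLM/B27) against Day 16, and differed by 0.76 between HPLM/B27 and RPMI_glcM/B27 (adjusted p = 0.0569).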
